A study of Homo sapiens with 3 samples.

Results

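The kinetochore and spindle checkpoint genes described here are 37 genes, chosen by name and role from 22824 genes counted. The kinetochore is the protein assembly that forms on each centromere and holds the microtubules of the mitotic spindle. Its inner layer sits on chromatin marked by the centromeric histone, its outer layer binds microtubules, and the spindle checkpoint delays anaphase while any kinetochore lacks attachment. The chromosomal passenger complex, built around the kinase Aurora B, destabilizes faulty attachments, and transcripts of most of these genes are known to be most abundant in late S, G2 and mitosis. The members were divided by textbook role into 4 genes of the passenger complex, 12 of the outer kinetochore, 7 of the checkpoint, 12 of the inner kinetochore and 2 shugoshins, which protect centromeric cohesion.

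The RNA came from MDA-MB-231, an established line of triple-negative breast cancer cells. All 3 libraries came from cells given the control siRNA siCTRL at 50 nM by Lipofectamine RNAiMax in a pair of transfections 24 h apart, and cells were taken 48 h after the second. The labels call them biological replicates of 1 group (n = 3), and nothing states whether the cultures were separately grown, so errors describe the spread between these libraries. The study concerns the proteasome, but with 1 group no effect of a treatment could be tested here, and the questions addressed are how the classes of kinetochore genes compare in level and how steady they were.

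The gene counts totalled 68664126 in replicate 1, 84880547 in replicate 2 and 54512366 in replicate 3. The line's labelled identity was checked on marker genes, with VIM at 4561 ± 160, S100A4 at 3228 ± 8.70, KRT8 at 748 ± 40.5, KRT19 at 660 ± 51.2 and KRT18 at 600 ± 33.8 TPM, the counts scaled by transcript length and then to a common total. Of the receptor genes that bear on triple-negative identity, PGR stood at 0.0601 ± 0.00148 and ESR1 at 0.0120 ± 0.00476 TPM. ERBB2 stood higher, at 28.8 ± 1.67 TPM, above the median of 18.2 TPM for all genes tested. Summed over 3 leukocyte markers (PTPRC, CD3E and CD14) the libraries held 2.82 to 3.46 TPM, over 4 endothelial markers (PECAM1, CDH5, VWF and KDR) 2.17 to 2.42 TPM and over 5 fibroblast markers (DCN, COL1A1, COL1A2, PDGFRB and LUM) 7.97 to 9.42 TPM. DCN had 0 counts, which allows levels of up to 0.0877, 0.0708 and 0.110 CPM (counts scaled by library size alone), the worth of 3 pairs of reads in each replicate, for counting error only.

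Many promoters of mitotic genes carry CCAAT boxes, bound by NF-Y, and a cell cycle genes homology region (CHR) near the start site, at which the DREAM complex represses transcription outside the division phases and B-MYB and FOXM1 act later. Windows of 250 bases before to 50 after the annotated start were available for 29 of the 37 members, from RefSeq with build GRCh38.p14, and no window was used for KNTC1, CENPM, CASC5, CENPH, CENPL, BIRC5, TTK and BUB3. The CHR letters TTTGAA, searched on both strands, occurred in 12 of these 29 member windows (41.4%), against 15.4% of 27305 windows in the table. CCAAT, also on both strands, occurred in 19 of the 29 (65.5%), against 35.7% of all windows, and both motifs together in 9 (31.0%), against 6.08%. The 5 windows with both motifs and a CHR starting within 50 bases upstream of the start site are shown 5′ to 3′ on the gene's strand, since they hold the arrangement most typical of this gene class. Capitals mark TTTGAA or its reverse complement TTCAAA, and CCAAT or its reverse complement ATTGG. They lie at chr1:37692266-37692565 (plus strand) for CDCA8, chr2:26785806-26786105 (plus) for CENPA, chr2:168890381-168890680 (minus) for SPC25, chr10:56361210-56361509 (minus) for ZWINT and chr11:62123761-62124060 (plus) for INCENP.
CDCA8: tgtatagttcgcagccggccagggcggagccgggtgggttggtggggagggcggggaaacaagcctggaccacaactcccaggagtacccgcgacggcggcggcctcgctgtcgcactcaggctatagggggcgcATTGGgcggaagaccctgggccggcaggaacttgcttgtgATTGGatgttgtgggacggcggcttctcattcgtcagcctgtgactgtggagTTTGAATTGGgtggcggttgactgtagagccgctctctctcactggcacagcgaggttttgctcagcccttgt
INCENP: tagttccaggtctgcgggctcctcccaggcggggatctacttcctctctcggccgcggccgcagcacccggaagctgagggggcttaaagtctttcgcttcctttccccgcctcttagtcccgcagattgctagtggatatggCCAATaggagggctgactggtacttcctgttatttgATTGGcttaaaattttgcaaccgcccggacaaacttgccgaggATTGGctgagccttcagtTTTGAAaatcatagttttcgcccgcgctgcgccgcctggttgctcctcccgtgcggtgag
ZWINT: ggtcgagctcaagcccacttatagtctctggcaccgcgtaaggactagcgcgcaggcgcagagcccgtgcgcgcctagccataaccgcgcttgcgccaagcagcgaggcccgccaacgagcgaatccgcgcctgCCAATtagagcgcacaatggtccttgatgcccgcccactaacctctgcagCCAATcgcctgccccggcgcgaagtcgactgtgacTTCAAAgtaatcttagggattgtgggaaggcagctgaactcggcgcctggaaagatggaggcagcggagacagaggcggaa
SPC25: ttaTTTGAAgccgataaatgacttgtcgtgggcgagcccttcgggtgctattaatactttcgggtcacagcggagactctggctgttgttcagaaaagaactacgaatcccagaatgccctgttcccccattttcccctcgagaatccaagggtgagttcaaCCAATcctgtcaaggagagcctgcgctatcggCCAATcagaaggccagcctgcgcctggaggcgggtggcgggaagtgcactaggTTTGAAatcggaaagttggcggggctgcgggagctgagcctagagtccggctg
CENPA: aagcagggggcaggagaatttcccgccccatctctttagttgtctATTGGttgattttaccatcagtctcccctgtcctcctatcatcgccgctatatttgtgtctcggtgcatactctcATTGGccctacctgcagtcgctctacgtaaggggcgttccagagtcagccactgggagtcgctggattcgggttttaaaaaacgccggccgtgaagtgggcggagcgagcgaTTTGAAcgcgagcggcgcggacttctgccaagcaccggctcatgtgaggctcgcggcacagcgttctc
The CHR nearest the start site began 23 bases upstream in CDCA8, 10 in INCENP, 31 in ZWINT, 3 in SPC25 and 18 in CENPA. In CDCA8 the CHR and the last ATTGG share a base. A match of letters is a description of these windows, and binding was not measured.

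All 37 members reached 1 CPM in each library, as did 55.6% of all genes, and all 37 also reached 10 CPM, as did 41.3% of genes. Their median level was 51.1 ± 1.37 TPM, against 18.2 ± 0.180 TPM for all genes tested (SD, n = 3 each). By mean level, 36 of the 37 lay above the median of the 18528 genes with a count and a length (50.0% of genes), and 7 lay above percentile 90 (10.0% of genes). Those 7 were ZWINT, AURKB, CDCA8, NDC80, BUB1, NUF2 and CENPF, and CENPP was the member under the median. When the members were ordered by mean TPM, the libraries of 13 of the 36 neighbouring pairs did not overlap, and those of the other 23 did. In RNA from a whole culture, fewer dividing cells and less RNA per cell cannot be told apart.

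**Figure D1:**
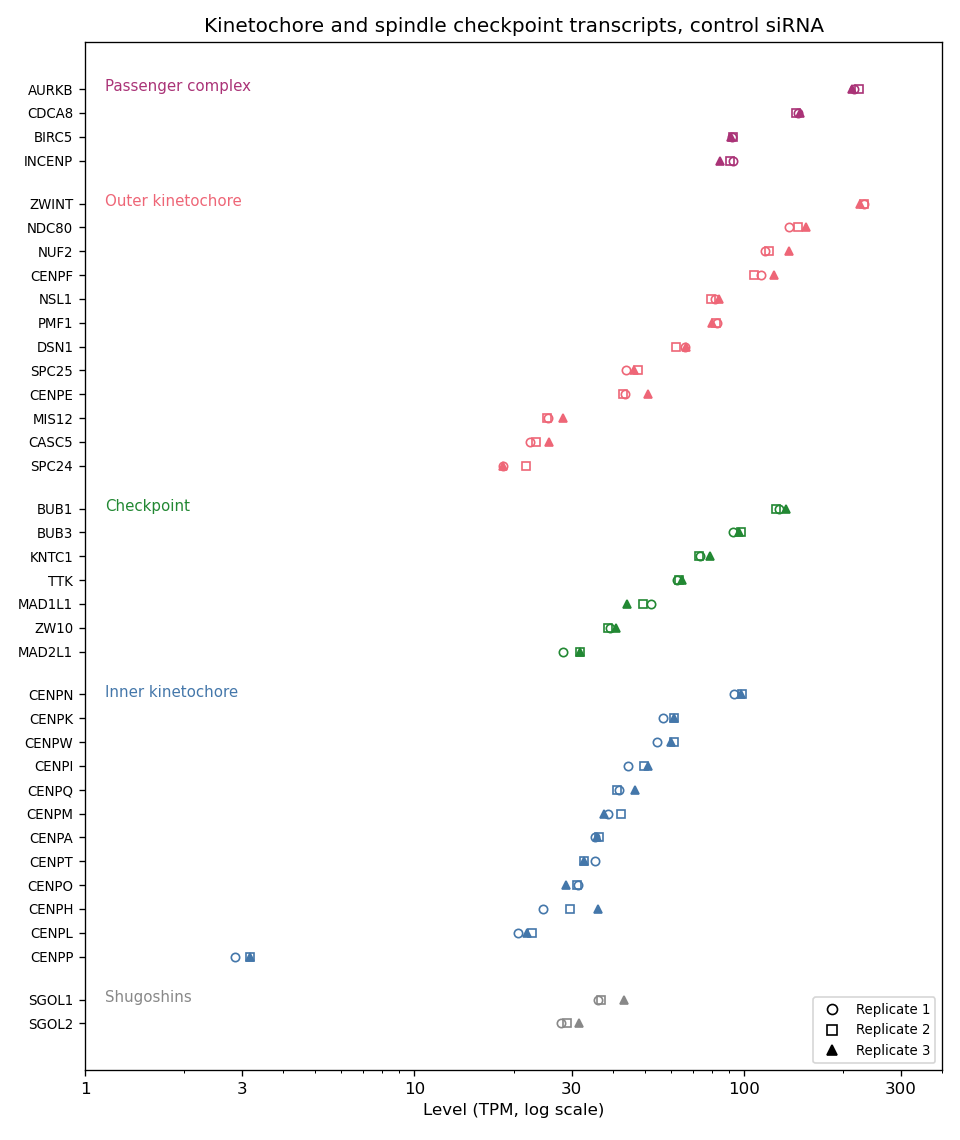
Level of each of the 37 genes in TPM on a log scale, grouped by class, with 1 symbol per library (replicate 1 open circle, replicate 2 open square, replicate 3 filled triangle). All 4 passenger genes lie above 80 TPM in each library, the outer kinetochore genes spread between SPC24 at about 20 TPM and ZWINT at 230 TPM, and CENPP stands alone near 3 TPM.

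The passenger complex held the highest class level, with a median of 119 ± 0.553 TPM over its 4 genes (SD, n = 3). AURKB, the Aurora B kinase itself, stood at 216, 224 and 214 TPM in replicates 1, 2 and 3. CDCA8, which encodes borealin and helps to bring the complex to the centromere, stood at 146, 145 and 148 TPM. BIRC5, which encodes survivin, the subunit that reads the mitotic histone mark, stood at 92.0, 92.5 and 91.3 TPM. The TPM ranges of these genes did not overlap each other, but their order turned on length. On coding length BIRC5 stood at 232 ± 2.51, CDCA8 at 198 ± 1.59 and AURKB at 119 ± 3.08 TPM. In CPM, CDCA8 averaged 151, AURKB 112 and BIRC5 104. AURKB, though within 1.07-fold across the libraries, was called as varying (edgeR, adjusted p = 0.0443 with each pair counted once). INCENP, the scaffold that joins the kinase to the other subunits, stood at 92.8, 90.9 and 84.6 TPM, a range that overlapped that of BIRC5. AURKB exceeded INCENP by a ratio of 2.44 ± 0.0995, although in CPM, without length, the ratio was 0.755, the matched transcripts being 1227 bases long for AURKB and 3964 for INCENP.

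In the outer kinetochore the median was 72.7 ± 1.56 TPM over 12 genes, and subunits of the same complex differed widely. ZWINT, which binds the KNL1 scaffold and recruits the RZZ complex, was the highest member of all, at 231, 231 and 226 TPM. CASC5, the gene of KNL1, the scaffold on which checkpoint proteins assemble, stood at 22.5, 23.4 and 25.6 TPM. The libraries of the pair did not overlap, and ZWINT exceeded CASC5 by a ratio of 9.67 ± 0.743 per length and 1.87 in CPM.

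The NDC80 complex is the main microtubule coupler, a rod in which NDC80 and NUF2 hold the microtubule end and SPC24 and SPC25 the chromosome end. NDC80 stood at 137, 146 and 155 TPM and NUF2 at 116, 119 and 137 TPM. SPC25 stood at 44.0, 47.6 and 46.5 TPM and SPC24 at 18.6, 21.8 and 18.6 TPM. Both genes of the microtubule end thus lay above both of the chromosome end in each library. The ratio of NDC80 to SPC24 was 7.47 ± 0.795 per length and 7.01 in CPM, but 2.15 when coding length alone was used, of which SPC24 has 591 bases in a transcript of 2315. On coding length NUF2 stood at 80.9 ± 6.92 and NDC80 at 75.8 ± 4.19 TPM, against 42.7 ± 1.69 TPM for SPC25 and 35.5 ± 3.37 TPM for SPC24, so the order of the ends was kept.

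The 4 genes of the MIS12 complex, which joins the NDC80 complex and KNL1 to the inner layer, spanned 26.3 to 81.9 TPM. NSL1 averaged 81.9 ± 2.31, PMF1 81.7 ± 1.58, DSN1 65.0 ± 2.36 and MIS12 26.3 ± 1.77 TPM. NSL1 and MIS12 had like counts, at 27.0, 26.6 and 27.5 CPM for NSL1 and 26.6, 26.7 and 29.4 CPM for MIS12. Their difference per length came from the 790-base model of the counted NSL1 record, and with the longest annotated transcript of 2317 bases NSL1 stood at 34.6 TPM. PMF1 shares 53.7% of its counted exon bases with the read-through gene PMF1-BGLAP, so its level is uncertain. The corona genes, which encode large proteins at the outermost layer, were CENPF at 113, 107 and 123 TPM and the plus-end motor CENPE at 43.5, 43.0 and 51.1 TPM. CENPF exceeded CENPE by a ratio of 2.51 ± 0.0911, and both were highest in replicate 3.

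The checkpoint genes had a median of 63.8 ± 1.02 TPM over 7 genes. BUB1, a kinase that marks centromeric chromatin and recruits checkpoint proteins, stood at 128, 125 and 134 TPM. BUB3, the adaptor that docks BUB1 on KNL1, stood at 93.1, 98.0 and 96.8 TPM, below BUB1 in each library. That order depended on length, since BUB3 had 305, 324 and 313 CPM against 187, 186 and 195 CPM for BUB1 and its annotated transcript runs to 7828 bases. On coding length BUB3 stood at 351 ± 8.87 TPM, the highest of all members. TTK, the kinase MPS1 that starts checkpoint signalling, stood at 62.9, 63.8 and 64.9 TPM, nearly level across the libraries.

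MAD1L1, which carries MAD2 to unattached kinetochores, stood at 52.4, 49.5 and 44.1 TPM. MAD2L1, which encodes MAD2, the inhibitor of the anaphase activator CDC20, stood at 28.3, 31.7 and 31.7 TPM. The ranges did not overlap, but the order again turned on length, with a ratio of MAD1L1 to MAD2L1 of 1.60 ± 0.234 per length, 0.808 in CPM and 0.231 on coding length. KNTC1 and ZW10 belong to the RZZ complex, which brings MAD1 and dynein to the kinetochore. KNTC1, the gene of ROD, stood at 73.9, 73.1 and 78.8 TPM and ZW10 at 39.4, 38.6 and 41.1 TPM, so that KNTC1 was higher in each library, by a ratio of 1.90 ± 0.022.

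The inner kinetochore had the lowest median of the 4 main classes, 37.5 ± 1.03 TPM over 12 genes. CENPA, the histone H3 variant that defines the centromere, stood at 35.3, 36.3 and 35.8 TPM. CENPN, which reads the CENPA nucleosome, was the highest of the class at 93.5, 98.5 and 97.8 TPM, and its partner CENPL stood at 20.7, 22.8 and 22.0 TPM. The members of this dimer differed by a ratio of 4.43 ± 0.0965 per length, and by 4.66 in CPM and 5.36 on coding length. The counted CENPN transcript shares 22.5% of its bases with genes on the opposite strand, CMC2 among them, and the strand setting of the counting is not given in the sources used here.

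In the CENP-HIKM group, which links the centromere to the outer layer, CENPK averaged 59.8 ± 2.56, CENPI 48.5 ± 3.44, CENPM 39.5 ± 2.41 and CENPH 30.1 ± 5.79 TPM. That order depended on length. On coding length CENPK stood at 59.2 ± 2.37, CENPM at 32.6 ± 2.07, CENPH at 26.0 ± 4.88 and CENPI at 22.8 ± 1.53 TPM. In CPM, CENPI averaged 47.0, CENPK 43.4, CENPH 17.5 and CENPM 16.0. The histone-fold pair CENPT and CENPW gives the outer layer a second anchor. CENPW averaged 58.7 ± 3.70 and CENPT 33.6 ± 1.51 TPM, with ranges apart, and the ratio of 1.76 ± 0.184 became 0.561 in CPM. In the CENP-OPQ group, of which CENPQ helps to bind microtubules and motors, CENPQ averaged 43.2 ± 3.0, CENPO 30.5 ± 1.45 and CENPP 3.06 ± 0.177 TPM. The ratio of CENPQ to CENPP was 14.1 ± 0.958 on the annotated length of 8766 bases for CENPP, but 2.79 in CPM and 3.0 on coding length. The order also turned on coding length, where CENPO stood at 68.4 ± 3.55, CENPQ at 42.9 ± 2.79 and CENPP at 14.3 ± 0.784 TPM. CENPP and CENPO also share 35.0% and 28.5% of their bases with genes on the opposite strand, and no member other than CENPN, CENPO, CENPP and PMF1 shared 5% or more. The shugoshins SGOL1 and SGOL2, which recruit a phosphatase that guards cohesin, stood at 36.0, 36.9 and 43.4 TPM for SGOL1 and at 27.8, 29.1 and 31.5 TPM for SGOL2. SGOL1 was higher in each library, by a ratio of 1.31 ± 0.0561 per length, but lower in CPM, at a ratio of 0.805. Both were highest in replicate 3.

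Between classes, the difference of median log2(TPM + 1) was computed within each library, and 6 differences were compared. The passenger complex exceeded the inner kinetochore by 1.61 ± 0.04, the checkpoint by 0.85 ± 0.02 and the outer kinetochore by 0.68 ± 0.03 (SD, n = 3). The outer kinetochore exceeded the inner by 0.93 ± 0.07 and the checkpoint by 0.18 ± 0.04, and the checkpoint exceeded the inner kinetochore by 0.75 ± 0.04. Each was positive in 3 of 3 libraries and larger than its SD. That SD describes how the same genes repeated across libraries, not the spread of genes within a class. No p is given, since genes are not replicates and 3 libraries cannot give an exact sign-flip p below 0.25. The classes overlapped gene by gene. Passenger genes lay above inner genes in 46 of 48 gene pairs and above outer genes in 38 of 48, outer above inner genes in 102 of 144, checkpoint above inner genes in 65 of 84 and outer above checkpoint genes in 44 of 84.

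The height of the passenger complex held on every scale tried, and its lead over the inner kinetochore ran from 1.61 to 2.26. The lead of the outer over the inner kinetochore also held, from 0.51 on coding length to 1.58 in CPM. The place of the checkpoint genes did not hold, since their lead over the inner kinetochore was -0.034 on coding length and the lead of the outer kinetochore over them was -0.015 in CPM.

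**Figure D2:**
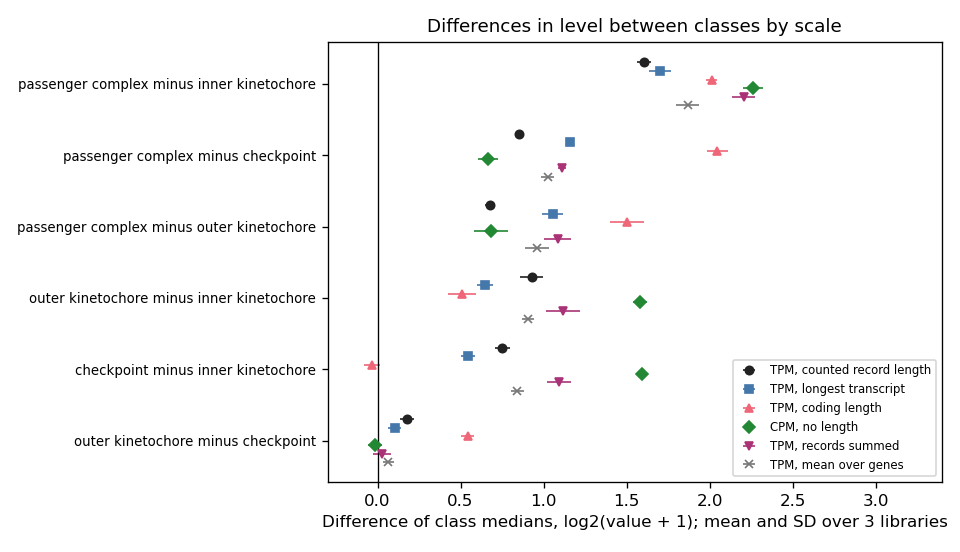
Difference of class medians on the log2(value + 1) scale for 6 pairs of classes under 6 scales, as mean (symbol) and SD (bar) over the 3 libraries, with 0 marked by the vertical line. The 3 pairs led by the passenger complex and the pair of outer minus inner kinetochore stay right of 0 on each scale, whereas checkpoint minus inner reaches -0.034 and outer minus checkpoint -0.015.

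The spread between the libraries was next compared with counting noise. In an edgeR fit without added dispersion, 29 of 37 members varied between libraries at an adjusted p under 0.05 (78.4%), against 53.0% of 14432 genes tested. Both mates of a pair appear to be counted, since more genes held exactly 2 counts than 1 in each library. With DESeq2 size factors 29 members varied (53.1% of genes), with no filter on low counts 28 (44.2%) and with counts summed over records 31 (62.4%). Records of a gene share exons, so the sum can hold a read more than once, which the test does not allow for. The number of members varying was 19 without replicate 1 (37.8% of genes), 20 without replicate 2 (39.2%) and 14 without replicate 3 (24.2%). With each pair counted once, 17 members (45.9%) varied, against 28.5% of genes. The sizes were small. The median coefficient of variation in CPM was 5.41% for the members, against 5.59% for all genes tested. For genes with 10 CPM or more it was 4.41%. The median ratio of highest to lowest library was 1.108 for the members and 1.112 for all genes tested. Those medians were near equal, so small ratios were not particular to the members. All 37 members reached 10 CPM, and their median coefficient of variation was above that of genes with 10 CPM or more.

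CENPH varied most. It had 14.3, 17.4 and 20.8 CPM in replicates 1, 2 and 3, a ratio of 1.45 between replicate 3 and replicate 1. Against counting noise, with each pair counted once, it was called (edgeR, adjusted p = 2.1e-07). Of the members it alone was still called with a coefficient of variation of 5% allowed (edgeR, adjusted p = 0.0107, 1.12% of genes called). That fit counted both mates, and the 5% lay below the common coefficient of variation fitted to these libraries, 0.0544. The other members of the CENP-HIKM group differed less between libraries. CENPI had 43.3, 48.6 and 49.0, CENPK 41.3, 44.9 and 44.0 and CENPM 15.6, 17.3 and 15.1 CPM. MAD1L1, at 60.6, 57.8 and 50.4 CPM, was the other member at 1.2-fold or more. At the other end, CDCA8 had 151, 151 and 151 CPM, a coefficient of variation of 0.0806%. BIRC5 had 104, 106 and 102 CPM and TTK 79.2, 81.1 and 80.8 CPM. With offsets for GC content TTK was called as varying (edgeR, adjusted p = 0.000535). With each pair also counted once TTK was not called (edgeR, adjusted p = 0.0585). Of the 4 passenger genes 2 varied, of the 12 outer genes 10, of the 7 checkpoint genes 5 and of the 12 inner genes 10, against 53.0% of all genes. With each pair counted once the numbers were 2 passenger, 6 outer, 4 checkpoint and 3 inner genes, against 28.5% of all genes.

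Which library stood highest moved with base composition. Of the 37 members 5 were highest in replicate 1 (31.4% of genes), 17 in replicate 2 (30.2%) and 15 in replicate 3 (38.4%). Across members, the deviation of a library from the gene's mean correlated with the GC content of the transcript with Spearman's rho of 0.63 in replicate 1, 0.31 in replicate 2 and -0.76 in replicate 3 (37 genes), against 0.41, 0.25 and -0.52 over 14309 genes tested. These are descriptions across genes of the same libraries. The members are poorer in GC than most genes, with a median of 42.9% against 49.3%, and run from 32.9% in CENPK to 62.2% in MAD1L1. Among the 21 members under 45% GC, 0 were highest in replicate 1 (12.9% of such genes), 7 were highest in replicate 2 (20.7%) and 14 in replicate 3 (66.4%). Among the other 16 members, 5 were highest in replicate 1 (41.1%), 10 in replicate 2 (35.2%) and 1 in replicate 3 (23.6%).

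**Figure D3:**
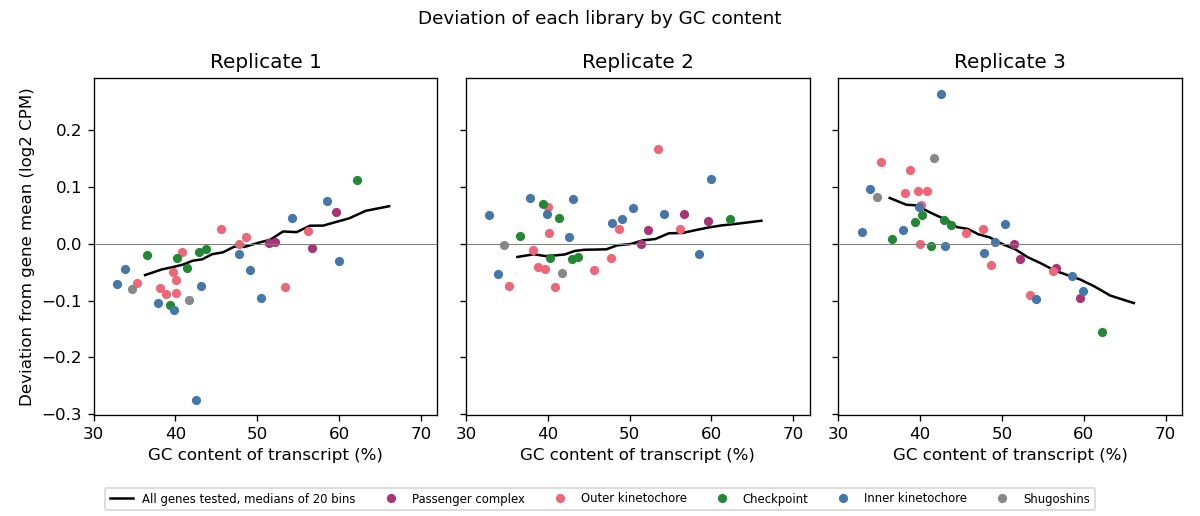
Deviation of each gene in each library from its mean over the 3 libraries (log2 CPM) against the GC content of its transcript, with the members as points coloured by class and the medians of 20 GC bins of all genes tested as a line. The line falls with GC content in replicate 3 and rises in replicates 1 and 2, and the members trend in the same directions but scatter off it. CENPH, at 42.5% GC, stands lowest in replicate 1.

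With offsets for GC content, 20 members varied (54.1%), against 39.6% of genes, and the median coefficient of variation was 3.08%, against 3.29% for genes of 10 CPM or more. With offsets and each pair counted once, 7 members varied (18.9%), against 14.6% of genes. These were CENPF, BUB3, CENPH, CENPE, MAD2L1, SPC24 and SGOL1. SPC24 stood apart in replicate 2, with 18.0, 21.3 and 17.8 CPM, and MAD2L1 was low in replicate 1, with 64.8, 73.4 and 71.8 CPM. After GC offsets, 7 members were highest in replicate 1 (32.0% of genes), 20 in replicate 2 (33.4%) and 10 in replicate 3 (34.5%).

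The files list counts per transcript record, and 20 members had several, which made 81 records in all. In 11 of the 20 the lowest record held 90% or more of the count of the largest, and records of a gene share exons, so they are not independent measurements. Wider gaps were seen in CENPM, whose shortest record held 27.4% of the largest, in SGOL1 at 48.0%, in CENPN at 53.5% and in PMF1 at 69.2%. The 13 records of SGOL1 bear on its splicing. A pair of records that differ by 756 coding bases alone held 2335, 2913 and 2225 counts with those bases and 1629, 2107 and 1539 counts without them. The difference of 706, 806 and 686 counts amounted to 2.91 counts per base over the 3 libraries, against 3.33 per base for the 1582 bases of the shorter record, or 87.2%. Other pairs of SGOL1 records, differing by 756 or 807 bases in matched length, gave 72.3% to 123%. The longer records of these pairs, both of 2338 bases in matched length, held 7473 and 7098 counts, so some pairs differed by more than those bases. The pairs with 2198 or 2564 extra counts gave 87.2% to 107%. Counts over the 756 or 807 bases were thus present in all 3 libraries, but their density relative to the shared bases depended on the pair chosen.

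**Figure D4:**
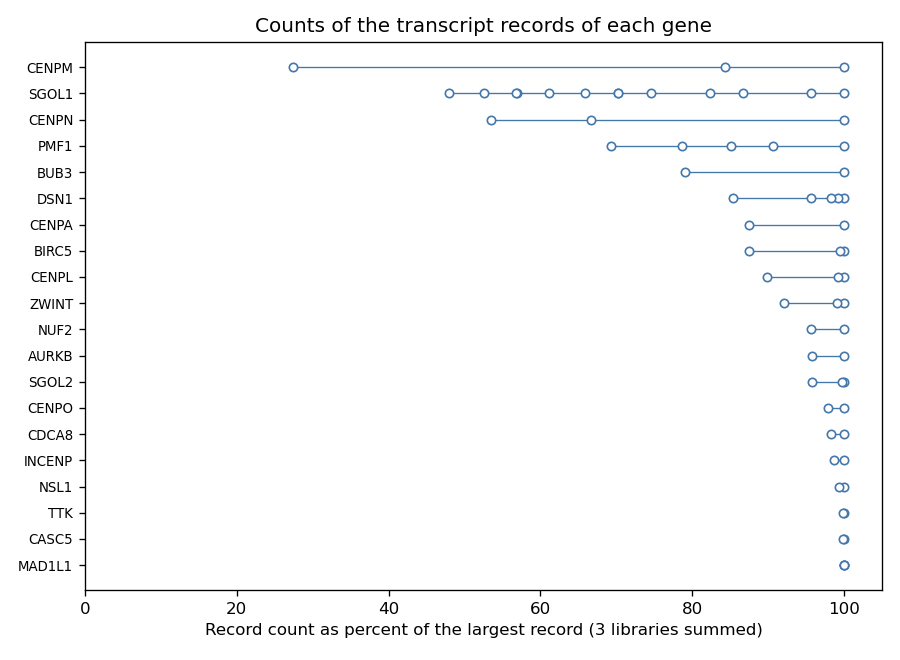
Count of each transcript record as percent of the largest record of the same gene, with the 3 libraries summed and 1 circle per record, for the 20 genes with several records. CENPM, SGOL1 and CENPN spread from under 55% to 100%, while 11 genes keep all their records at 90% or more.

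Levels were also set beside the promoter letters. The 12 members with the CHR letters anywhere in the window had a median of 93.0 ± 1.77 TPM. The 17 members with a window and no CHR had 48.4 ± 3.34 TPM (SD over libraries, not genes, n = 3). In NUF2, CENPF, CENPO, MAD2L1 and CENPN the letters lay only downstream of the start, and in ZW10 224 bases upstream. The sets overlapped widely, from CENPO at 30.5 TPM to ZWINT at 230 TPM with a CHR, and from CENPP at 3.06 TPM to AURKB at 218 TPM without. For the CCAAT letters the gap was smaller, with 58.7 ± 3.65 TPM in 19 members with them and 49.8 ± 1.32 TPM in 10 without. Of the 5 genes whose windows are printed above, ZWINT and CDCA8 were among the 3 highest members, INCENP stood at 89.5, SPC25 at 46.0 and CENPA at 35.8 TPM.

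Among 21 other genes of the centromere and kinetochore, the median was 43.0 ± 1.07 TPM and 13 varied between libraries (53.0% of genes), or 10 with each pair counted once (28.5%). The highest were MLF1IP, the inner kinetochore subunit CENP-U, at 185 ± 7.89 TPM, the mitotic kinase PLK1 at 178 ± 6.33 TPM and HJURP, the chaperone that deposits CENPA, at 124 ± 2.15 TPM. The lowest were GSG2, the gene of haspin, the kinase that marks histone H3 for the passenger complex, at 17.0 ± 1.65 TPM and CENPC1, the gene of the inner scaffold CENP-C, at 8.38 ± 1.07 TPM. The 10 genes of the machinery that the checkpoint restrains, the anaphase-promoting complex and its targets, were higher than any kinetochore class, with a median of 184 ± 4.14 TPM. Of these 9 varied, or 8 with each pair counted once. UBE2C, the ubiquitin-conjugating enzyme of that complex, stood at 497 ± 15.2, the separase inhibitor PTTG1 at 462 ± 14.2 and the activator CDC20 at 430 ± 21.7 TPM. CDC23, a structural subunit, stood at 63.8 ± 0.977 and ESPL1, the protease separase, at 34.9 ± 1.85 TPM. CDC20 exceeded both genes of its inhibitor arm, MAD2L1 and MAD1L1, in each library.

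For comparison, 12 mitotic kinesins had a median of 99.2 ± 2.11 TPM, from the microtubule depolymerase KIF2C at 256 ± 1.67 TPM to KIF14 at 37.5 ± 1.65 TPM. All 12 varied (53.0% of genes), or 7 with each pair counted once (28.5%). The 27 replication genes had a median of 50.8 ± 1.43 TPM, from the helicase subunit MCM3 at 312 ± 3.96 TPM to the origin recognition subunit ORC2 at 15.9 ± 1.28 TPM, and 18 varied, or 11 with each pair counted once. The median of the kinetochore and checkpoint genes lay within 1 TPM of that of the replication genes and below that of the kinesins.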

How the data were processed

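The authors deposited 3 tables of raw counts, 1 per library, as whole numbers per RefSeq transcript record. Per the submitters' processing notes, FastQC, TopHat2 and Cufflinks were used on hg19. Their versions are not given in the sources used here, nor are the counter, whether it used strand, and how it treated reads with several hits. Libraries were made with Illumina TruSeq RNA kits and read as pairs of 100 bp, per the labels' protocols.

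Of 42269 records per library, 6937 carried no gene name, 6318 of them were matched by accession, and the 619 others, 0.952%, 0.959% and 0.944% of record totals, were left out. A gene's count was that of its record with the largest total, which gave 22824 genes, 18739 with a count. TPM used the GENCODE 29 transcript matched to the counted record by accession (95.1% of genes with a count) or else the longest transcript of the gene (98.9% with any length). These lengths postdate the counted annotation, and untranslated ends may differ from it, so levels of BUB3, MAD2L1, CENPP, CENPO and NSL1 are given on other lengths too. Overlap of exons was taken from the GENCODE 29 basic protein-coding genes.

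Variation between libraries was tested with edgeR 4.0.16 in R 4.3.3 on all genes passing filterByExpr without groups (TMM library sizes, intercept-only fit, dispersion 0, deviance against a chi-square), with Benjamini-Hochberg adjustment over all of them and calls at 0.05. DESeq2 1.42.0 size factors were an alternative. The edgeR step was tested on simulated data. Class levels were medians of log2(TPM + 1). Tables were joined in Python 3.11.15 (pandas 2.3.3, numpy 2.4.6) and plotted in matplotlib 3.10.9. Genes named are all members, the 3 highest and 2 lowest of the other kinetochore genes and of the checkpoint targets, the highest and lowest of the kinesins and of the replication genes, and the line markers. A cell type marker and a detail of the line's genotype are not reported here. Members and lists were chosen with earlier results of these data known. Counting precision was set by 54512366 to 84880547 counts per library, in which both mates appear to be counted. With each pair counted once, 28.5% of genes tested still varied beyond counting noise, so these totals alone did not set precision.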

Additional observations from a re-analysis of the deposited data

How the results depend on the processing

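In the order outer minus inner, checkpoint minus inner, passenger minus inner, outer minus checkpoint, passenger minus outer and passenger minus checkpoint, the class differences were 1.58, 1.60, 2.26, -0.015, 0.68 and 0.67 in CPM. With the longest annotated transcript they were 0.65, 0.54, 1.70, 0.10, 1.05 and 1.16, with counts summed over records 1.12, 1.09, 2.20, 0.026, 1.09 and 1.11, and with means over members 0.91, 0.84, 1.87, 0.065, 0.96 and 1.02. Summing can count reads of shared exons once per record, so that setting also moves with the number of records of a gene. On coding length, an alternative added after seeing the data, the class differences were 0.51, -0.034, 2.01, 0.54, 1.503 and 2.05. With ZW10 and KNTC1 placed in the outer kinetochore, outer minus checkpoint was 0.13 and passenger minus outer 0.72. The pseudocount moved no difference beyond its SD. The filter at 1 CPM removed no member, and CENPE and CENPF lay on opposite sides of the outer median. Applying that filter or leaving out CENPE and CENPF therefore left every difference unchanged by construction, and is no test of it. With each library left out in turn the differences ran from 0.91 to 0.97, 0.73 to 0.77, 1.59 to 1.63, 0.15 to 0.19, 0.66 to 0.69 and 0.84 to 0.86, in the same order. The number of members varying between libraries was 17 with each pair counted once, 1 with a coefficient of variation of 5% allowed, 7 with pairs once and GC offsets (added after seeing the data), and 14 to 20 with a library left out, the lowest without replicate 3. It was 29 with DESeq2 size factors, 28 without a filter and 31 with summed records. The cause of the changes between length settings is their construction; the cause of the others was not tested. No paired analysis was possible because the labels give 1 group.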

Other observations

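These libraries hold 1 line under 1 control treatment, so levels cannot be called particular to the line or to the transfection. RNA levels are not protein levels, and the stoichiometry of the complexes was not measured. The length of untranslated ends limits comparisons between genes, as the values for BUB3, MAD2L1, CENPP and NSL1 show, and so does the choice between the largest record and the sum over records, which put SGOL1 at 38.7 and 185 TPM. Comparisons of a gene with itself between libraries do not depend on length, but they moved with GC content.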
